A study of Sus scrofa with 8 samples.

Results

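GPM6B, ASPA, TPRG1 and LGALS13 are 4 of the 13393 genes named on the porcine array, and they were chosen by the difference in level between cells from the fat pad of the knee and cells from the joint capsule, in which a probe set of each stood higher in the former. All 13 probe sets that the platform annotation assigns to these symbols were taken, out of 47722 probe sets tested: 8 for GPM6B, 1 each for ASPA and TPRG1, and 3 for LGALS13. In LGALS13 the choice used that difference in DL alone. The differences between the tissues are therefore described below without a test, and the differences between the breeds were tested. The members are joined by this pattern and not by a shared pathway.

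Gene expression was measured in undifferentiated synovial mesenchymal stem cells, fibroblast-like cells that grow out of the inner membrane of a joint, at passage 3. The cells came from the stifle joints of 3 male German Landrace (DL) and 3 male Angeln Saddleback (AS) piglets aged 59 days, from adipose synovium lining the infrapatellar fat pad (FP) or from fibrous synovium inside the lateral capsule (FS). The RNA of cell pools gave 4 groups of 2 arrays, named by breed and tissue (DL-FP, AS-FP, DL-FS and AS-FS), and the labels number the arrays 1 and 2. No group was treated or genetically modified, and the pools were cultured cells rather than sorted ones. No source assigns the arrays of a group to separate animals or cultures, so the p-values rest on a spread between arrays that may be only technical.

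GPM6B encodes a membrane glycoprotein of the proteolipid family, which is abundant in neurons and in the cells that make myelin. ASPA encodes aspartoacylase, the enzyme that splits N-acetylaspartate into aspartate and acetate, and its loss causes Canavan disease in humans. In mouse brown fat cells the same step follows N-acetylaspartate synthesis by NAT8L and feeds acetate into lipid metabolism, so a role in fat cells is known for ASPA in that species. TPRG1 was named as a gene regulated by the tumor protein p63 and lies beside TP63 in the pig genome (assembly Sscrofa11.1). LGALS13 encodes galectin-13, a sugar-binding protein known as placental protein 13 in humans.

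Values are log2 levels after robust multichip averaging (RMA), so that a difference of 1 is 2-fold. Array medians ranged from 4.58 to 4.64, and 69 background probe sets had medians of 2.66 to 2.81. All 13 probe sets of the 4 genes exceeded the background median on every array, with values from 3.91 to 8.99. Levels are compared only within a probe set, because probe sets differ in how brightly they bind. Of the mesenchymal stem cell markers, THY1 had a mean level of 10.98, ENG of 9.20, CD44 of 9.06 and ITGB1 of 11.39, whereas NT5E stood near background at 3.01. The leukocyte marker PTPRC, which these cells should lack, was at 2.08.

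Each group of arrays was set against the others in 1 limma fit across all 47722 probe sets, and a difference was called at a Benjamini-Hochberg adjusted p of 0.1 or less, the level the methods set. Over all probe sets, 126 passed between FP and FS (0.264%, with 0.159% higher in FP), and all 4 FP arrays lay above all 4 FS arrays in 1.39%. Among the members, the FP arrays lay above the FS arrays without overlap in 11 of 13 probe sets, a count that follows from the choice of the genes. The remaining 2 belonged to LGALS13.

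**Figure D1:**
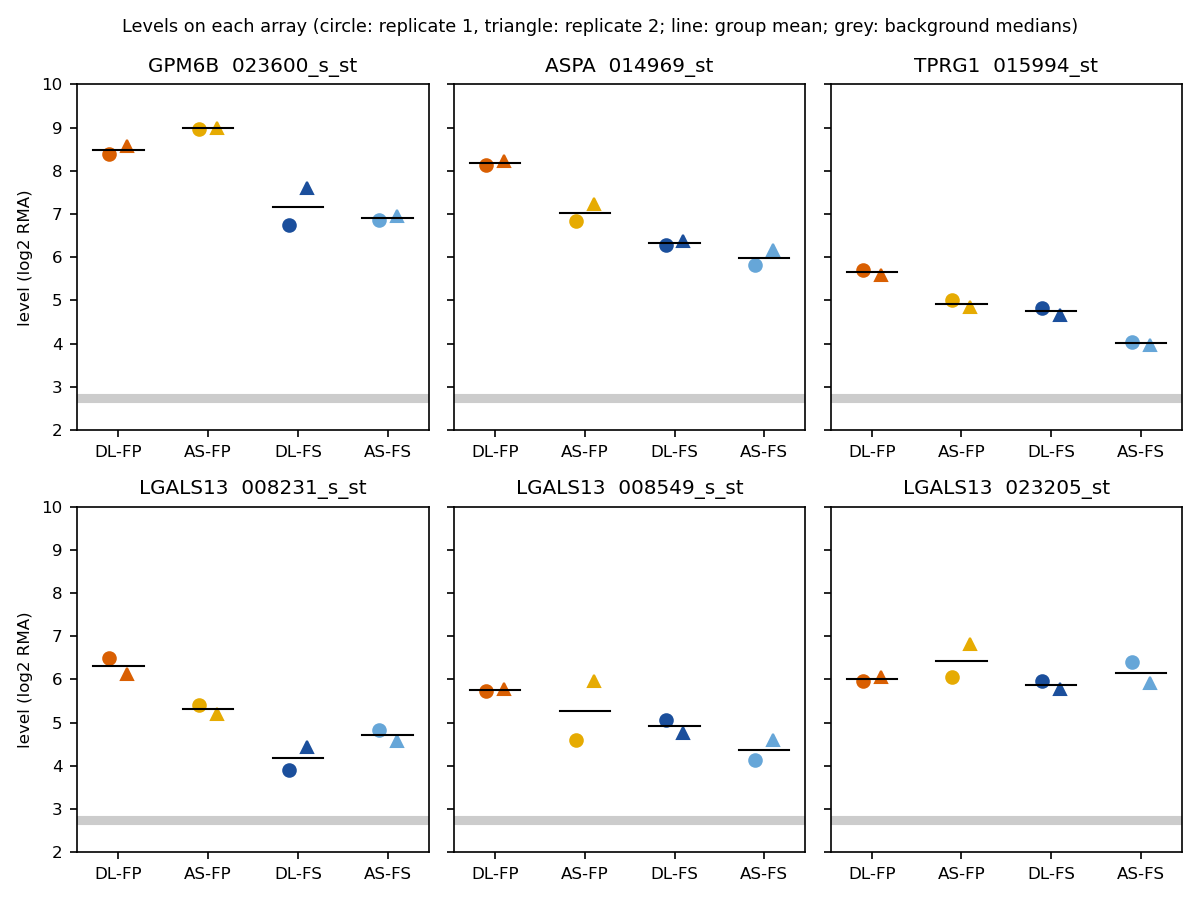
Log2 RMA level (vertical axis) on each of the 8 arrays, by group, for the brightest probe set of GPM6B, the only probe set of ASPA and of TPRG1 and all 3 of LGALS13; circles are replicate 1, triangles replicate 2, lines group means and the grey band the background medians of 2.66 to 2.81. GPM6B has both FP groups above both FS groups, ASPA and TPRG1 fall from DL-FP over AS-FP and DL-FS to AS-FS, and the LGALS13 probe sets follow 3 different patterns. Heights are not comparable between panels.

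GPM6B stood higher in FP on every probe set and in both breeds. In its brightest probe set, SNOWBALL_023600_s_st, the DL-FP arrays read 8.39 and 8.58 and the AS-FP arrays 8.97 and 8.99. The DL-FS arrays read 6.75 and 7.59 and the AS-FS arrays 6.87 and 6.96. The FP arrays were thus all above the FS arrays, and DL-FS 2 was the highest of the FS arrays by a margin that left its group the widest of the 4. The mean was 8.73 ± 0.29 in FP and 7.04 ± 0.38 in FS (SD, n = 4 arrays each), a difference of 1.69 on the log2 scale (standard error 0.17), or 3.22-fold. In AS the difference was 2.06 and in DL 1.31 (standard error 0.24 each).

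The other 7 probe sets of GPM6B showed the same separation. Over the 8 probe sets the FP minus FS difference lay between 1.11 and 1.69, and the gap between the lowest FP array and the highest FS array between 0.51 and 0.99. SNOWBALL_001643_st averaged 8.44 ± 0.22 for FP and 7.28 ± 0.16 for FS (SD, n = 4), with a difference of 1.17 (standard error 0.10). SNOWBALL_001646_st averaged 7.84 ± 0.26 for FP and 6.16 ± 0.28 for FS (SD, n = 4), with one of 1.68 (standard error 0.17). These are the 2 GPM6B probe sets whose names lack the suffix for probes shared between transcripts, and the 6 with that suffix may also read near-identical transcripts. The 8 probe sets target 1 gene and are not independent of each other.

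**Figure D2:**
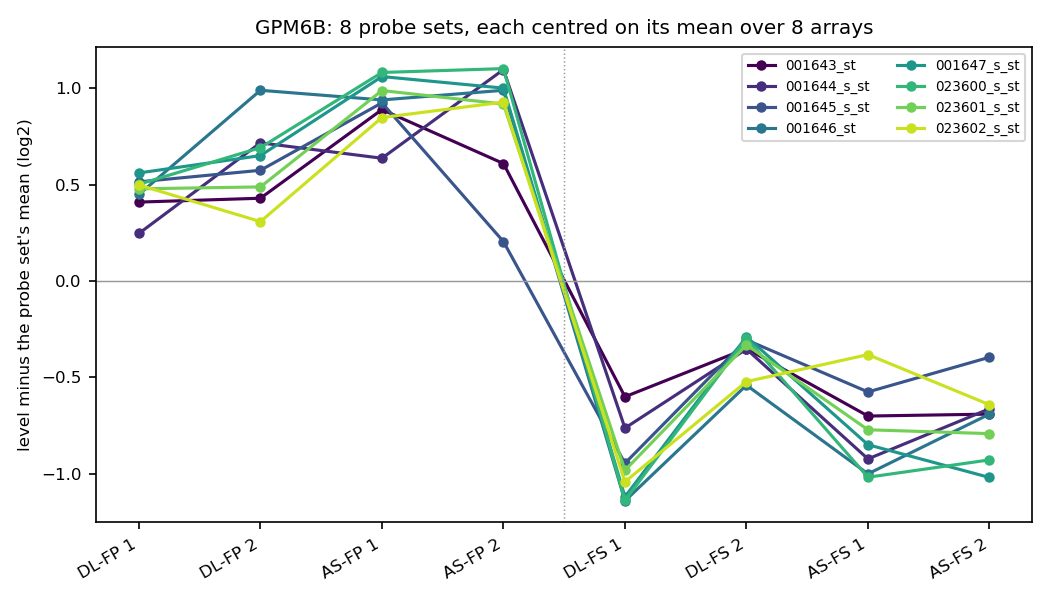
Level of each of the 8 GPM6B probe sets minus its own mean over the 8 arrays (log2, vertical axis) on each array (horizontal axis), 1 line per probe set, with the FP arrays left of the dotted line. All 8 lines are higher on the 4 FP arrays than on the 4 FS arrays, and DL-FS 2 stands above DL-FS 1 on each line, by 0.25 to 0.84.

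Between the breeds, GPM6B did not pass the test on any of its 8 probe sets, and 1 of them had an unadjusted p below 0.05. AS minus DL, averaged over both tissues, was 0.12 in the brightest probe set (standard error 0.17, 95% interval -0.27 to 0.50, limma adjusted p = 0.919). Over the 8 probe sets it lay between 0.05 and 0.38, with adjusted p from 0.443 to 0.954, against 0.666% of all probe sets that passed. The largest, 0.38 in SNOWBALL_023602_s_st, had a 95% interval of 0.07 to 0.68 and an adjusted p of 0.443. Within FP the AS arrays averaged higher on 8 of 8 probe sets, by 0.02 to 0.49, and both AS-FP arrays lay above both DL-FP arrays on 5 of 8, compared with 16.7% of all probe sets. Within FS the AS arrays averaged lower on 6 of 8. The 8 probe sets read 1 gene on the same arrays, so these counts are not 8 separate results. Neither within-tissue difference passed on any GPM6B probe set, with adjusted p of 0.768 or more in FP and 0.845 or more in FS, where 0.212% and 0.0943% of all probe sets passed. Unadjusted, 3 and 0 of the 8 were below 0.05. In the order of levels of the brightest probe set, AS-FP was first and DL-FP next, 0.49 lower (standard error 0.24), and DL-FS and AS-FS overlapped.

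The tissue difference of GPM6B was larger in AS than in DL on 7 of 8 probe sets, the exception being SNOWBALL_001645_s_st at -0.13. The difference between the breeds in FP minus FS reached 0.75 in the brightest probe set (standard error 0.33, 95% interval -0.01 to 1.52). It ranged from 0.33 (DL-FS 2 left out) to 1.17 (DL-FS 1 left out). Its limma adjusted p was 1 on each of the 8, of which 1 had an unadjusted p below 0.05. Across all probe sets this interaction gave 0 calls (0%), with or without the replicate number in the fit, although 1709 had an unadjusted p below 0.05. DL-FS 2 stood above DL-FS 1 on 8 of 8 GPM6B probe sets. Without DL-FS 1 the FP minus FS difference in DL of the brightest probe set was 0.89, and without DL-FS 2 it was 1.73. The same difference in AS moved only between 2.02 and 2.11 when an array was left out.

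ASPA differed between the tissues in both breeds, and between the breeds as well. Its probe set, SNOWBALL_014969_st, read 8.14 and 8.22 in DL-FP and 6.29 and 6.38 in DL-FS. In AS it read 6.83 and 7.24 in FP and 5.82 and 6.16 in FS. The groups kept the order DL-FP, AS-FP, DL-FS, AS-FS with no overlap between any neighbours. That FP lay above FS follows from the choice of the gene. Both AS arrays lay below both DL arrays in 16.6% of all probe sets within FP and in 17.1% within FS. FP exceeded FS by 1.44 (standard error 0.12), or 2.72-fold, with 7.61 ± 0.68 against 6.16 ± 0.25 (SD, n = 4 arrays each). This difference was 1.84 in DL and 1.04 in AS (standard error 0.18 each), a gap between the breeds of -0.80 (standard error 0.25, 95% interval -1.37 to -0.23) that did not pass the test (limma adjusted p = 1).

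AS cells had less ASPA signal than DL cells, by 0.75 on average over both tissues. AS stood at 6.51 ± 0.64 and DL at 7.26 ± 1.06 (SD, n = 4 arrays each), and the log2 difference was -0.75 (standard error 0.12, 95% interval -1.03 to -0.46, 1.68-fold), which passed the test at a limma adjusted p of 0.0648. ASPA and TPRG1 were the 2 probe sets of the 13 called between the breeds, both lower in AS, where 0.436% of all probe sets were called lower. In FP the AS arrays were lower by 1.15 (standard error 0.18, adjusted p = 0.0823), against 0.132% of probe sets called lower in that comparison. In FS they were lower by 0.35 on average, which did not pass (difference -0.35, standard error 0.18, 95% interval -0.75 to 0.06, adjusted p = 0.779). Without any 1 of the arrays except AS-FP 2 the breed difference of ASPA no longer passed (adjusted p of 0.108 to 0.252), and without any 1 of the 8 that within FP no longer passed (0.109 to 0.518), while both kept their sign.

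TPRG1 differed between the tissues by the same amount in both breeds, and between the breeds by nearly the same amount in both tissues. SNOWBALL_015994_st read 5.70 and 5.60 in DL-FP and 4.83 and 4.66 in DL-FS. In AS it read 5.0 and 4.85 in FP and 4.04 and 3.98 in FS. All FP arrays were above all FS arrays, but by a gap of only 0.02 between AS-FP 2 and DL-FS 1, so that AS-FP and DL-FS were close neighbours with a difference of 0.18 (standard error 0.16). FP averaged 5.29 ± 0.43 and FS 4.38 ± 0.43 (SD, n = 4 arrays each), which differed by 0.91 (standard error 0.11), or 1.88-fold. Within DL and within AS the value was 0.91 as well (standard error 0.16 each).

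AS arrays were lower than DL arrays of the same tissue throughout. Such a separation of 2 arrays from 2 occurred in 16.6% of all probe sets within FP and in 17.1% within FS. The level of TPRG1 was 4.47 ± 0.53 in AS and 5.20 ± 0.53 in DL (SD, n = 4 arrays each). Their difference of -0.73 (standard error 0.11, 95% interval -0.99 to -0.47, 1.66-fold) passed at a limma adjusted p of 0.0483. Within FP it was -0.73 (standard error 0.16, adjusted p = 0.270) and within FS -0.74 (standard error 0.16, adjusted p = 0.304), and neither passed with 2 arrays against 2. The interaction was 0.01 (standard error 0.23, 95% interval -0.52 to 0.53, adjusted p = 1). Leaving out any 1 of the 8 arrays ended the call of TPRG1 between the breeds (adjusted p of 0.116 to 0.188), with values of -0.78 to -0.69.

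The 3 probe sets of LGALS13 disagreed. In SNOWBALL_008231_s_st, the probe set that brought the gene in, the DL-FP arrays read 6.5 and 6.12 and the DL-FS arrays 3.91 and 4.44. The AS-FP arrays read 5.4 and 5.21 and the AS-FS arrays 4.84 and 4.57. The 4 groups did not overlap, in the order DL-FP, AS-FP, AS-FS, DL-FS. The DL groups lay at both ends, which the choice by FP minus FS in DL favours. Over all probe sets, both AS-FP arrays lay below both DL-FP arrays in 16.6%, and both AS-FS above both DL-FS in 17.9%. FP minus FS was 2.13 in DL (standard error 0.23, 4.38-fold) and 0.60 in AS (standard error 0.23, 1.51-fold). AS minus DL was -1.0 in FP and 0.53 in FS (standard error 0.23 each), and the average over both tissues, -0.23 (standard error 0.16, 95% interval -0.61 to 0.14), did not pass the test (limma adjusted p = 0.771).

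The other two LGALS13 probe sets did not separate the tissues. SNOWBALL_008549_s_st read 5.74 and 5.77 in DL-FP, 5.07 and 4.77 in DL-FS, 4.60 and 5.96 in AS-FP and 4.14 and 4.61 in AS-FS, and the low AS-FP 1 lay among the FS arrays. Its FP minus FS difference of 0.87 (standard error 0.27) became 1.21 without AS-FP 1 and 0.53 without AS-FP 2. SNOWBALL_023205_st, the brightest of the 3, read 5.97 and 6.05 in DL-FP, 5.96 and 5.78 in DL-FS, 6.05 and 6.81 in AS-FP and 6.40 and 5.92 in AS-FS. There FP exceeded FS by 0.20 (standard error 0.18), within the spread of the arrays. Neither differed between the breeds by the test, with AS minus DL of -0.51 (standard error 0.27, limma adjusted p = 0.679) and 0.36 (standard error 0.18, limma adjusted p = 0.654). Galectins have near-identical copies, and 2 of the 3 probe sets, SNOWBALL_008231_s_st among them, bear the suffix for shared probes, so which galectin each reads is uncertain.

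**Figure D3:**
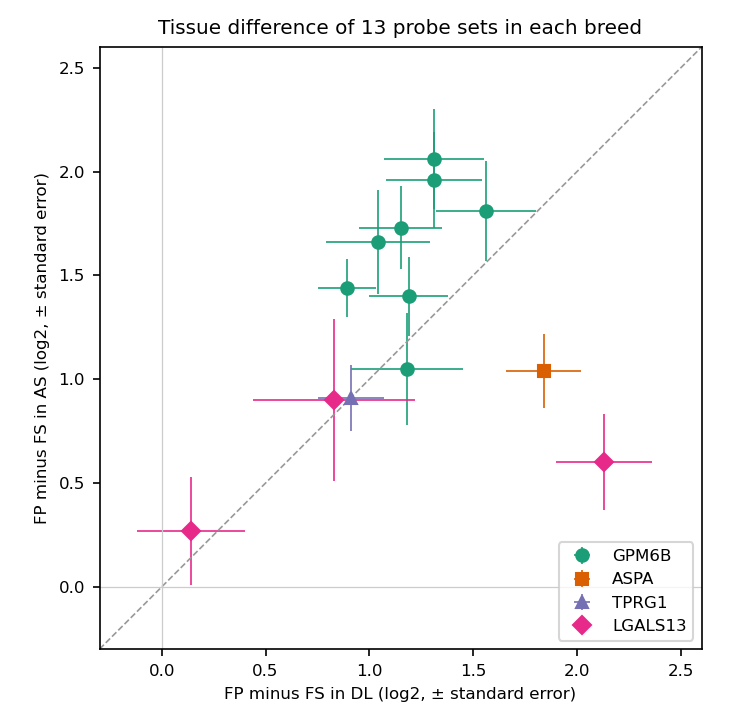
FP minus FS in DL (horizontal axis) and in AS (vertical axis), log2 with standard errors as bars, for the 13 probe sets; the dashed line marks equal differences. GPM6B points lie above the line except SNOWBALL_001645_s_st, TPRG1 lies on it at 0.91, and ASPA (1.84 and 1.04) and LGALS13 SNOWBALL_008231_s_st (2.13 and 0.60) lie below it.

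Because RNA was taken from whole cultures, fewer cells of a type and less RNA per cell cannot be told apart. The lists of pathway partners and cell markers held 121 genes, of which 103 were measured, each by its brightest probe set. Of the 13393 named genes, 54 (0.403%) passed between FP and FS and 142 (1.06%) between the breeds, and the median FP minus FS difference was 0.00, with 5% of genes below -0.24 and 5% above 0.26. Of the 103 listed genes, 3 passed between FP and FS and 1 between the breeds. With the replicate number in the fit, 0.987% of all probe sets passed between FP and FS and 3.04% between the breeds, and of the listed genes 8 and 7.

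FP cells came from a fat pad, and of 17 fat cell markers measured, LPL and PPARG passed, both higher in FP, with a median difference of 0.09 over the list. LPL passed on 1 of its 4 probe sets, which ranged from 0.00 to 1.59, and PPARG on 1 of its 5, from 0.38 to 1.29. LPL, the lipase that releases fatty acids from lipoproteins, read 4.27, 4.31, 5.36 and 4.75 in FP and 3.07, 2.02, 3.38 and 3.86 in FS (DL 1 and 2, then AS 1 and 2), with DL-FS 2 below background. Its FP minus FS difference was 1.59 (standard error 0.26, limma adjusted p = 0.0882). PPARG, the nuclear receptor that drives fat cell formation, read 7.06, 6.80, 6.65 and 6.94 in FP and 5.48, 6.11, 5.72 and 5.63 in FS, a difference of 1.13 (standard error 0.16, adjusted p = 0.0510). The fatty acid carrier FABP4 differed by 1.14 (standard error 0.26, adjusted p = 0.258), and passed with the replicate number in the fit (adjusted p = 0.0246).

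Besides LPL and PPARG, no fat cell marker passed between FP and FS on its brightest probe set without the replicate number. Of all 17, 5 had an unadjusted p below 0.05. CD36, at background at 2.75, differed by 0.79 (standard error 0.19, limma adjusted p = 0.329) and CEBPA by 0.31 (standard error 0.11, adjusted p = 0.837). LIPE differed by -0.49 (standard error 0.40). FP minus FS was 0.25 for ADIPOQ, which encodes adiponectin, 0.09 for PLIN1, a coat protein of lipid droplets, -0.28 for LEP, -0.15 for CIDEC and 0.12 for CIDEA, and none of these passed with or without the replicate number. Between the breeds, ADIPOQ averaged higher in AS by 0.58 (standard error 0.13, adjusted p = 0.171, or 0.0445 with the replicate number), and LPL passed on 1 of its 4 probe sets, not the brightest. The mean level over the list ranged from 5.34 to 5.66 on the FP arrays and from 5.22 to 5.32 on the FS arrays. Part of the list was therefore higher on the arrays where GPM6B, ASPA and TPRG1 were high, and its part in their differences was not tested. Leaving out any array except DL-FS 1 ended the call of LPL (adjusted p of 0.143 to 0.318), and any except DL-FS 2 that of PPARG (0.102 to 0.210).

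The listed markers of Schwann cells and oligodendrocytes, cells in which GPM6B and ASPA are known to be abundant, did not pass. Of 13 measured, 0 passed in limma in either comparison with or without the replicate number, while 2 and 4 had an unadjusted p below 0.05, and the median FP minus FS was 0.00. The list mean ranged from 4.99 to 5.14 on the FP arrays and from 5.03 to 5.17 on the FS arrays. SOX10, the transcription factor of these lineages, differed by 0.04 and S100B by 0.05. Lower in FP were OLIG2 by -0.33 (standard error 0.11, limma adjusted p = 0.698) and PMP22 by -0.25 (standard error 0.08, adjusted p = 0.735). GFAP differed by -0.23 (standard error 0.12). CDH19 was at background at 2.06. MBP, a myelin protein gene, differed by 0.43 (standard error 0.22, adjusted p = 1), with AS minus DL of -0.78 (standard error 0.22, adjusted p = 0.294). GPM6A, the other proteolipid family gene measured, was at background at 2.47.

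The genes of N-acetylaspartate metabolism measured beside ASPA did not pass without the replicate number. ASPA itself was tested between the breeds and not between the tissues. Of 12 measured genes of N-acetylaspartate metabolism, 0 passed in either comparison in limma, with 1 in each at an unadjusted p below 0.05, and ACSS1 and RIMKLB passed only with the replicate number in the fit. NAT8L, which makes N-acetylaspartate, averaged 5.21 ± 0.41 in FP cells and 5.32 ± 0.17 in FS cells (SD, n = 4), with a difference of -0.11 (standard error 0.20, adjusted p = 1), and its breed difference was -0.23 (standard error 0.20, adjusted p = 0.836). The uptake transporter SLC13A3 differed between the tissues by 0.13 (standard error 0.15). ACSS1, which turns acetate into acetyl-CoA in mitochondria, read 6.31, 6.20, 5.96 and 6.22 in FP and 5.68, 5.81, 5.26 and 5.50 in FS. All its FP arrays were above its FS arrays, and the difference of 0.61 (standard error 0.11) had an adjusted p of 0.144, or 0.0460 with the replicate number. Its cytosolic counterpart ACSS2 differed by -0.06 and the citrate-cleaving ACLY by -0.09. RIMKLB, a synthase of N-acetylaspartylglutamate, averaged higher in AS by 0.33 (standard error 0.15, adjusted p = 0.591, or 0.0949 with the replicate number).

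TP63, the gene after which TPRG1 was named, stood at 2.10, below the background medians, and 1 of 11 measured genes of the p63 family and its targets passed between FP and FS. This was FGFR2, a fibroblast growth factor receptor, with FP at 8.10 ± 0.25, FS at 7.22 ± 0.13 (SD, n = 4) and a difference of 0.88 (standard error 0.14, limma adjusted p = 0.0785) that no longer passed without any 1 array other than AS-FP 2 (0.151 to 0.283). FGFR2 passed on 4 of its 10 probe sets, and its breed difference was -0.06 (standard error 0.14). Between the breeds 0 of the 11 genes passed and 2 had an unadjusted p below 0.05, with a list median of -0.06. AS minus DL was -0.49 for DLX5 (standard error 0.14, limma adjusted p = 0.321). It was -0.50 for DLX6 (standard error 0.13, adjusted p = 0.277), which stood at background at 2.12. The related TP73 differed between the tissues by 0.04 and the paralog TPRG1L by 0.06. PERP, a p63 target of cell junctions, differed by 0.40 (standard error 0.15, adjusted p = 0.839). Epithelial markers, which accompany p63 in skin, gave 0 calls of 7 in either comparison and 0 at an unadjusted p below 0.05, with KRT5 at 4.47 and EPCAM at 2.74.

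Of 8 other galectin genes and binding partners measured, 0 passed on the brightest probe set between FP and FS or between the breeds in limma, with 3 and 1 at an unadjusted p below 0.05. LGALS1 and LGALS3, bright on every array at means of 10.39 and 11.50, differed between the tissues by 0.00 and -0.18. LGALS9 read 6.73 and 6.79 in AS-FP and 5.41 and 5.38 in AS-FS, a difference of 1.37 (standard error 0.22, adjusted p = 0.169, or 0.0477 with the replicate number), whereas in DL the difference was 0.00. Averaged over both breeds, FP minus FS of the 4 LGALS9 probe sets ranged from -0.08 to 0.68. LGALS12, a galectin of fat cells, differed by -0.33 (standard error 0.14, adjusted p = 0.974). In LGALS8, AS minus DL was -0.59 on the brightest probe set (standard error 0.14, adjusted p = 0.190, or 0.0780 with the replicate number). It passed without that number on 2 of the 5 LGALS8 probe sets, which ranged from -0.81 to -0.08.

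Among the remaining lists, endothelial, macrophage and leukocyte, and skeletal muscle markers gave 0 calls between FP and FS in limma, and 0 at an unadjusted p below 0.05. The endothelial marker PECAM1 differed between the breeds by -0.53 (standard error 0.13, adjusted p = 0.220, or 0.0200 with the replicate number). The stem cell markers ENG and CD44 differed by -0.27 (standard error 0.08) and 0.29 (standard error 0.15), with adjusted p of 0.329 and 0.654, or 0.0745 and 0.0617 with the number. ABCC9, a channel subunit of pericytes, was the one pericyte marker of 7 that passed with the replicate number (difference 1.54, standard error 0.31, adjusted p = 0.180, or 0.00217 with it). The 5 ABCC9 probe sets ranged from 0.06 to 1.54, and 0 passed without the number. Of the synovial lining markers, VCAM1 had an FP minus FS difference of 0.55 (standard error 0.14, adjusted p = 0.396, or 0.0482 with the number) and CD55 one of -0.37 (standard error 0.09, adjusted p = 0.271, or 0.0521 with it). A further lining marker, PDPN, was the listed gene called between the breeds, at 7.12 to 8.02 in DL and 5.19 to 5.58 in AS, a difference of -2.15 (standard error 0.12, adjusted p = 0.000588). Its other probe set differed by -0.30 and did not pass, and FP minus FS was -0.23 (standard error 0.12, adjusted p = 1).

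**Figure D4:**
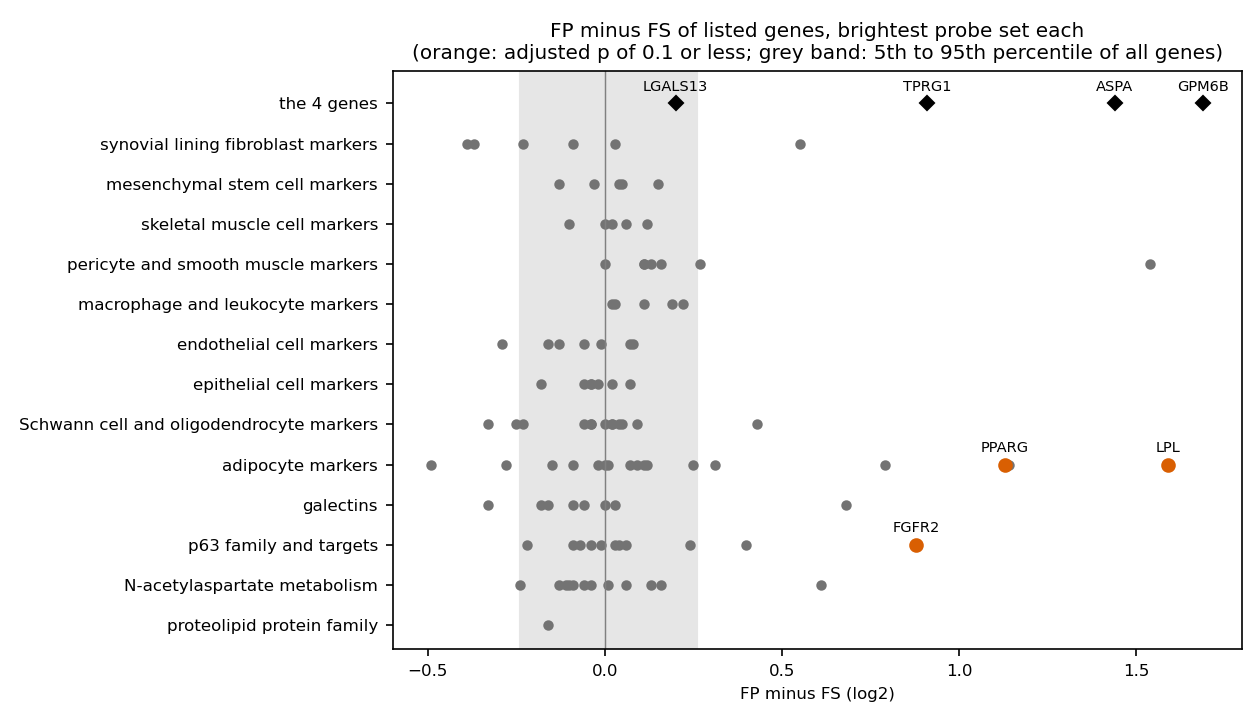
FP minus FS on the log2 scale (horizontal axis) for the brightest probe set of each listed gene, 1 row per list, with the 4 genes as diamonds at the top; orange points passed at an adjusted p of 0.1 or less in limma, and the grey band holds the genes between the 5th and 95th percentile of all named genes (-0.24 to 0.26). Only PPARG, LPL and FGFR2 are orange, and most listed genes lie inside the band.

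Genes on either side of the 4 in the pig genome (assembly Sscrofa11.1) did not share their differences. Of the 24 genes that lie within 3 places, 17 were measured, with FP minus FS between -0.12 and 0.29 and AS minus DL between -0.37 and 0.30. None was called in either comparison with or without the replicate number in limma, and 0 and 1 had an unadjusted p below 0.05. GPM6B lies between OFD1 and GEMIN8, of which OFD1 differed between the tissues by 0.10 (standard error 0.10). ASPA lies between SPATA22 and TRPV3, with SPATA22 at background at 1.54 and TRPV3 different by 0.10 (standard error 0.14). LPP, which precedes TPRG1, differed by -0.09 (standard error 0.13).

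The genes whose profiles lay closest to each member over the 8 arrays were found by the root mean square distance between profiles centred on their own means, among 13392 genes. For GPM6B they were IL17RD (0.29), GRB14 (0.32), KCNJ8 (0.35), IGF1 (0.36) and PPARG (0.39), where the median distance over all genes was 0.91. KCNJ8 encodes a potassium channel, GRB14 an adapter of the insulin receptor and IL17RD an inhibitor of fibroblast growth factor signalling. Their FP minus FS differences were 1.15 for IL17RD, 1.5 for GRB14, 1.17 for KCNJ8, 1.14 for IGF1 and 1.13 for PPARG. IL17RD also had the larger tissue difference in AS, at 1.63 against 0.67 in DL, as GPM6B did.

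For ASPA the closest were the protocadherin gene PCDH17 (0.16), MAL (0.25), SMOC1 (0.25), EREG (0.29) and PLCB4 (0.37), with a median over all genes of 0.86. All 5 averaged lower in AS than in DL within FP, by values from -1.50 for EREG, a ligand of the epidermal growth factor receptor, to -0.58 for MAL. MAL was not on the list of Schwann cell and oligodendrocyte markers, and its FP minus FS difference was 1.25. For TPRG1 the closest were ICA1L (0.16), MYO1D (0.18), BMPR1B (0.20), FAM46C (0.25) and EPHB1 (0.25), with a median over all genes of 0.61, and all 5 were also higher in FP and lower in AS on average. For the brightest LGALS13 probe set they were GRM5 (0.13), SLC24A3, IL7, ADAMTS3 and CSN1S2 (0.14 each), among flat profiles with a median distance of only 0.36. In SNOWBALL_008231_s_st, added after the values were seen, the closest were EREG (0.36), SMOC1 and MAL (0.38 each), ASPA (0.41) and PPARG (0.42). The points of each profile share the same 8 arrays, and a gene with a large tissue difference can be close only to genes that also have one. The same holds for a large breed difference. Directions that a member shares with its closest genes, in tissue or breed, therefore follow from how those genes were picked.

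**Figure D5:**
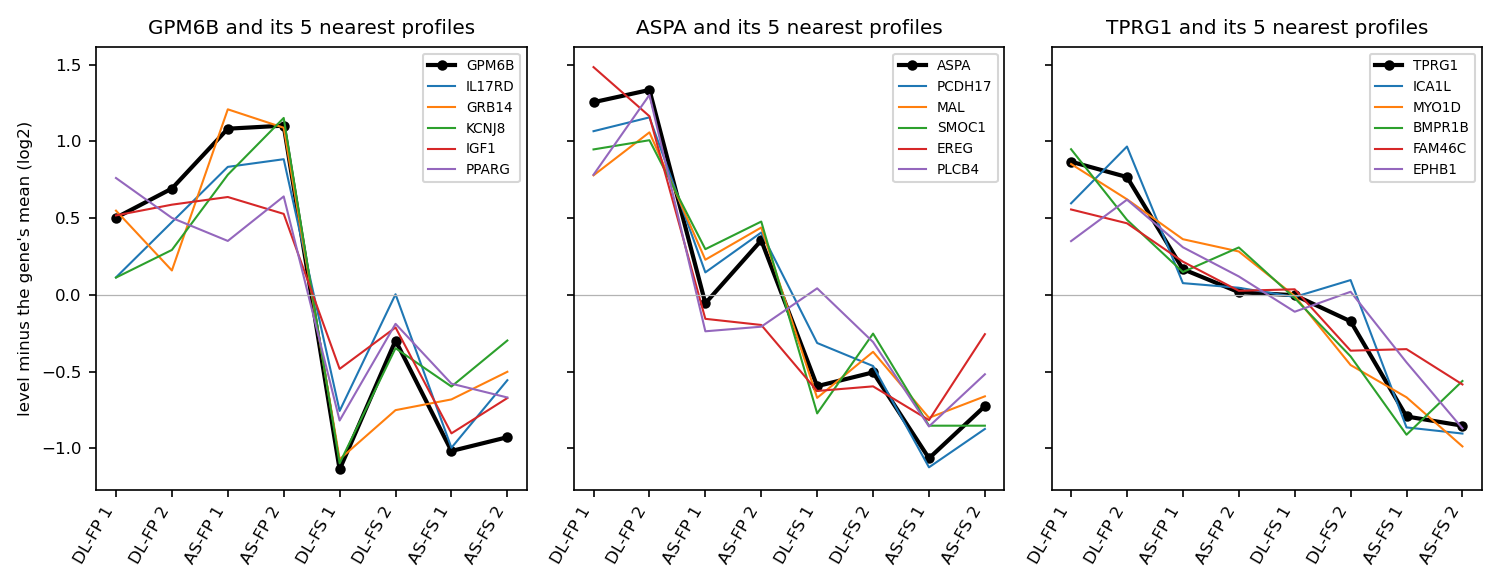
Level minus the gene's own mean (log2, vertical axis) on the 8 arrays (horizontal axis) for GPM6B, ASPA and TPRG1 (black) and the 5 genes closest to each (coloured). The GPM6B group is high on all FP arrays, the ASPA group is highest on both DL-FP arrays, and the TPRG1 group falls from DL-FP over AS-FP and DL-FS to AS-FS.

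With the replicate number in the fit, 5.52% of all probe sets differed between the arrays numbered 2 and those numbered 1, and of the 13 member probe sets 1 did. This was GPM6B SNOWBALL_001644_s_st, at 0.40 (standard error 0.11, limma adjusted p = 0.0958), with 5.79, 4.72, 6.17 and 4.41 on the arrays numbered 2 against 5.32, 4.31, 5.71 and 4.15 on those numbered 1 (DL-FP, DL-FS, AS-FP, AS-FS). The number 2 array was the higher in all 4 groups. SNOWBALL_001646_st followed at 0.38 (standard error 0.10, adjusted p = 0.109). For ASPA the value was 0.23 (standard error 0.09, adjusted p = 0.240), and for TPRG1 -0.12 (standard error 0.11, adjusted p = 0.646). The number 2 arrays averaged higher on 7 of the 8 GPM6B probe sets. Unadjusted limma p-values were below 0.05 for 2 of these 8 and for ASPA, and for 0 of the TPRG1 and LGALS13 probe sets. A count of 1 in 13 cannot be told apart from the share over all probe sets.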

How the data were processed

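Synovial mesenchymal stem cells of 4 groups were measured on 2 Affymetrix Porcine Snowball arrays each. The arrays were scanned with GCOS 1.1.1 (submitters' processing notes), and the authors deposited log2 values that Expression Console had normalized by robust multichip averaging. These were used unfiltered; the methods also filter on detection calls, not used here, and on an SD of more than 0.25. Of 47845 probe sets, 123 controls were left out and 47722 tested; 15281 had an SD above 0.25. The number of arrays limits the precision.

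One limma 3.58.1 fit (R 4.3.3) estimated the 4 group means, with variances moderated by a mean trend (4 residual and 4.33 prior degrees of freedom). Benjamini-Hochberg adjustment ran over all 47722 probe sets within each of 7 comparisons. Standard errors and 95% intervals came from this fit, and a fold is 2 raised to the size of the log2 difference. Other steps used Python 3.11.15, numpy 2.4.6, pandas 2.3.3 and matplotlib 3.10.9. The fit was tested on simulated data with known changes.

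Arrays sharing a replicate number deviated together from their group means in 6 of 6 pairs of groups (r = 0.143 to 0.219, each above 0.1), so the numbers were taken to pair the arrays, although no source says what they stand for. The fit with the number as a block is given where it changed the call of a member, or of a listed gene in the comparison printed. Labels and methods name no batch.

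Symbols came from the platform annotation, with 413 updated through synonyms; 25867 probe sets had 1 symbol. The 512 microRNA probe sets were left unnamed. A gene was led by its brightest probe set. Named genes were all members, the called and a choice of other members of each of 13 lists, the 5 closest profiles and the 3 neighbours on each side. The members and lists were chosen with earlier results of these data known. No sequences were used, and the assembly Sscrofa11.1 served only for the order of neighbouring genes.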

Additional observations from a re-analysis of the deposited data

Results flagged for a closer look

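In GPM6B SNOWBALL_001646_st, DL-FP 1 was the lowest of the 4 FP arrays at 7.45, apart from the other three, which read 7.94 to 7.99, and still above every FS array. In LGALS13 SNOWBALL_008549_s_st, AS-FP 1 was far below the other FP arrays, at 4.60 against 5.74 to 5.96. In LGALS13 SNOWBALL_023205_st, AS-FP 2 was far above them, at 6.81 against 5.97 to 6.05. These 3, all in FP, came from 52 groups of 4 arrays (FP, FS, AS and DL for each probe set) examined for an array that stands apart. Each group mixes both breeds or both tissues, and the probe sets of a gene are not independent. The number of such groups that chance alone would pick out is therefore not known.

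In LGALS13 SNOWBALL_008231_s_st, both AS arrays lay below both DL arrays in FP and above them in FS, so that FP minus FS was smaller in AS than in DL by a difference of -1.53 on the log2 scale. This difference was not tested, because the gene was chosen from FP minus FS in DL. That choice favours a high DL-FP and a low DL-FS, with AS between them. Over all probe sets, 16.6% had both AS arrays below both DL arrays in FP, and 17.9% had them above in FS.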

How the results depend on the processing

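The log2 differences of the members kept their sign in each test that passed, under every alternative run. Of 784 values of members under the alternatives, 730 stayed on the same side of the threshold or within the spread, 32 lost a call, 22 moved and 0 reversed after a call.

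The replicate block raised the calls over all probe sets from 126 to 471 between FP and FS (207 in DL, 236 in AS) and from 318 to 1451 between AS and DL (394 in FP, 513 in FS), and those of listed genes to 8 and 7; ASPA and TPRG1 stayed called. It changed no other member's call.

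Without a variance trend the calls were 62 (2 in DL, 15 in AS) between FP and FS and 195 (56 in FP, 18 in FS) between the breeds, with 0 listed genes between FP and FS; ASPA lost its calls (AS minus DL -0.75, adjusted p = 0.125; in FP -1.15, adjusted p = 0.169). With only probe sets of SD above 0.25, ASPA (-0.75, adjusted p = 0.120; in FP -1.15, 0.114) and TPRG1 (-0.73, 0.188) lost theirs, while FP minus FS in AS gave 69 calls and the listed genes 5. With only probe sets above background the former gave 41. Quantile normalization put ASPA in FP at -1.10 (adjusted p = 0.103). The linear model of the methods, with unmoderated variances, gave 1 (0 in DL, 1 in AS) and 0 (0 in FP, 1 in FS) calls, 0 listed genes in both, and no call of ASPA (-0.75, 0.390; in FP -1.15, 0.580) or TPRG1 (-0.73, 0.203). It was run here over all 47722 probe sets and not over those left by the filters of the methods. Its counts therefore do not repeat the study's own test.

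Leaving out 1 array at a time gave AS minus DL of -0.85 to -0.64 for ASPA (in FP -1.35 to -0.94) and -0.78 to -0.69 for TPRG1. FP minus FS in AS was 0.84 to 1.24 for ASPA, and in DL 0.89 to 1.73 for GPM6B SNOWBALL_023600_s_st. For LGALS13 SNOWBALL_008231_s_st, FP minus FS in DL was 1.86 to 2.40, AS minus DL in FS 0.27 to 0.80 and the interaction -1.80 to -1.27. For SNOWBALL_008549_s_st, AS minus DL in FP was -1.15 to 0.20, FP minus FS in AS 0.22 to 1.58 and the interaction -0.61 to 0.75, and for SNOWBALL_023205_st they were 0.04 to 0.80, -0.11 to 0.65 and -0.26 to 0.50. Calls ranged from 31 to 83 between FP and FS (0 to 7 in DL, 0 to 29 in AS) and from 87 to 168 between the breeds (0 to 65 in FP, 6 to 20 in FS), and listed genes from 0 to 1 and 1 to 2. A group left with 1 array is assumed to vary like the others. The causes of these changes were not tested.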
